A study of Mus musculus with 9 samples.

Results

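Cells given sodium butyrate (NaBu) and lipopolysaccharide (LPS) were compared with cells given LPS alone, across every gene of the deposited expression values. All libraries come from RAW264.7, a macrophage-like line from a mouse tumour induced by Abelson leukaemia virus. LPS is the endotoxin of Gram-negative bacteria, and NaBu is the salt of a short-chain fatty acid that gut bacteria make from fibre. The 3 libraries with the treatment label LPS+NaBu and the 3 with the label LPS were taken, 6 of the 9 libraries of the series, and the 3 libraries of untreated control cells were left out. Both groups received LPS, so each difference below is between LPS-treated cells with NaBu and LPS-treated cells without it. In the design text NaBu came before LPS and the replicates are called biological. The doses and times of these libraries, and whether the replicates were separate cultures, are not given by the sources used here, so p-values measure the spread between libraries, which may be technical. One cell line and no library of NaBu without LPS limit these groups as a model.

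Levels are normalised counts, that is reads of a gene scaled by 1 size factor for each library, given as mean ± SD over 3 libraries. They are not divided by gene length, so a level is meant for comparison between groups. Where genes are ordered or described by level, gene length enters as well. A fold is the ratio of the group means, and a log2 change is the difference of mean log2(normalised count + 1), LPS+NaBu minus LPS, with its standard error. A gene rose or fell where its adjusted p from limma was below 0.05 over all 14503 genes tested, of 43629 in the files. The LPS libraries held 37.6 to 52.3 M reads and the LPS+NaBu libraries 39.4 to 64.4 M, and the correlation of log2 values across genes was 0.985 to 0.990 within groups and 0.904 to 0.908 between them. Normalised counts summed to 53.0 M per LPS library and 43.8 M per LPS+NaBu library on average, so scaling all libraries to 1 sum moved the median change of all genes by 0.28 on the log2 scale. Counts below are relative to the size factors of the deposited values, and where that scaling (called 1 sum) or quantile normalization turned the balance of a group, or the sign of its median, those counts or medians are given too. A gene below 10 in every library of 1 group was tested only through the other group and could move only 1 way, so beside a list with 3 or more such members the rest is counted apart. Each count of a list is to be read against the 40.5% of all tested genes that rose and the 37.9% that fell. Of 16 tested macrophage markers 13 fell and 3 rose, and their summed level was 683698 to 723685 with LPS and 232846 to 251289.6 with LPS+NaBu. Lyz2, macrophage lysozyme, stood at 268185 ± 13538 and 148101 ± 7041, and Cd68, a lysosomal membrane protein, at 58475 ± 3563 and 33713 ± 2049, so both marker transcripts were abundant in every library. C1qa and C1qb, subunits of complement C1q, stayed under the minimum for testing.

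Butyrate inhibits several zinc-dependent histone deacetylases (HDACs), enzymes that take acetyl groups off histone tails and off other proteins, and it also acts on the cell-surface receptors Ffar2, Ffar3 and Hcar2. LPS binds Tlr4 with its partners Cd14 and Ly96, and the adaptors MyD88 and TRIF then switch on NF-kB, AP-1 and the interferon regulatory factors. The interferon-beta made in the process acts back on the cell through STAT proteins and IRF9 at interferon-stimulated response elements. In macrophages this programme sets cytokines, antigen presentation, metabolism and cell division.

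NaBu changed most of the expressed transcriptome of LPS-treated cells. Of the genes tested, 5873 (40.5%) were higher and 5495 (37.9%) lower with LPS+NaBu than with LPS, and 3135 did not pass the test. With all libraries scaled to 1 sum, 7338 rose and 4008 fell, so 64.7% of the called genes rose in place of 51.7%. At least 2-fold higher were 3148 genes (21.7%) and at least 2-fold lower 2327 (16.0%). At least 8-fold higher were 892 genes, against 238 at least 8-fold lower. The groups did not overlap at 11603 genes (80.0%), and the median standard error of a log2 change was 0.087. Split into 10 equal bins by mean level, in the lowest bin 38.9% rose at least 2-fold and 12.1% fell at least 2-fold, while in the highest bin 6.41% rose and 22.8% fell by that much. The share at least 2-fold higher decreased from bin to bin, while the share at least 2-fold lower stayed between 13.6% and 17.0% in the 8 bins in between. In that highest bin 60.5% of genes were lower at any size. Genes of the low bins could pass the minimum through 1 group alone, so their shares depend on that minimum. With a minimum of 50 in 3 libraries 2254 genes were at least 2-fold higher and 1986 at least 2-fold lower. Genes that reached 10 normalised counts numbered 13447 to 13720 per LPS library and 14405 to 14540 per LPS+NaBu library.

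**Figure D1:**
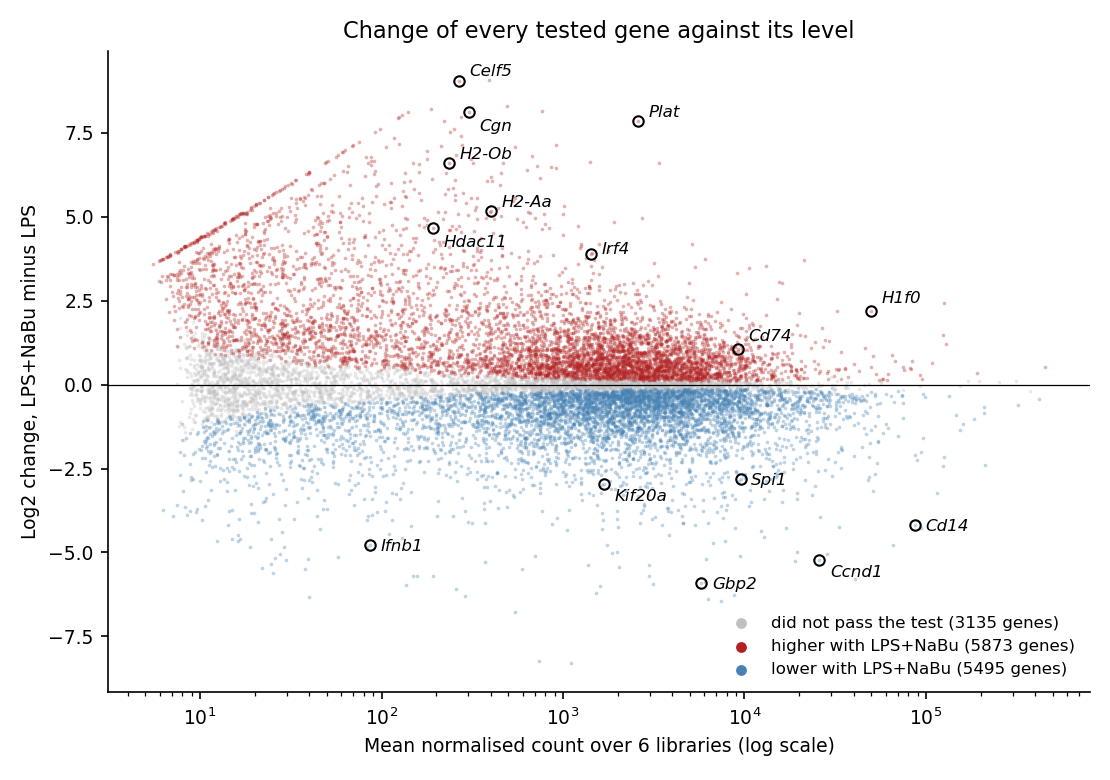
Log2 change of each of the 14503 genes tested (vertical axis, LPS+NaBu minus LPS) against its mean normalised count over the 6 libraries (horizontal axis, log scale), with 15 genes of the text marked. Rises fan out at low levels (Celf5, Cgn, H2-Ob), and falls are found at all levels, among them Ifnb1 at a low and Ccnd1 and Cd14 at a high level.

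**Figure D2:**
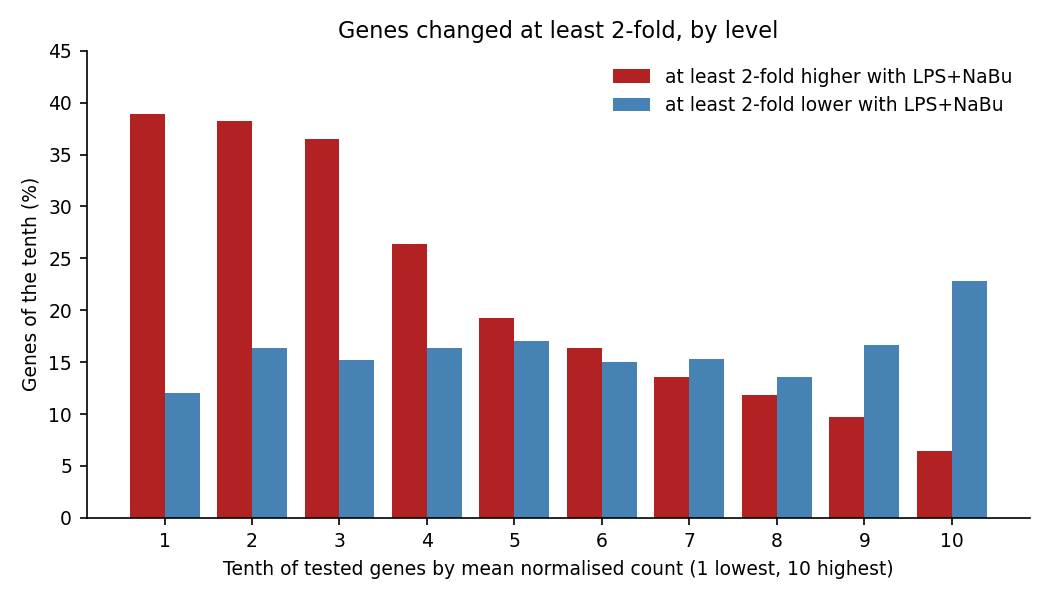
Percent of genes at least 2-fold higher and at least 2-fold lower with LPS+NaBu (vertical axis, bars from 0) in 10 equal bins of the tested genes ordered by mean normalised count (horizontal axis, 1 the lowest). The share higher falls from 38.9% in the lowest bin to 6.41% in the highest, where 22.8% are lower. Shares in the low bins depend on the minimum for testing, which a gene could pass through 1 group alone.

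The genes that interferon switches on were among the deepest falls, and the guanylate-binding proteins (GBPs) and immunity-related GTPases, which attack the vacuoles of intracellular microbes, fell without exception. All 15 tested of 20 listed fell, with a median log2 change of -4.21 beside 0.03 over all genes tested, and all 15 were lower under each scaling tried. Of these, 3 were below 10 in every LPS+NaBu library, and the other 12 fell too. Gbp2 read 11186, 12016 and 10951 in the LPS libraries and 172, 193 and 198 in the LPS+NaBu libraries, 60.7-fold lower (log2 change -5.92 ± 0.07, adjusted p = 8.06e-12). Irgm1, a regulator of the other GTPases, read 15824, 15708 and 17086 with LPS and 1464, 1555 and 1605 with LPS+NaBu, 10.5-fold lower. The groups lay far apart at both genes, with no LPS+NaBu library near any LPS library. Gbp6 fell from 1083 ± 40.1 to 9.27 ± 3.27, and Iigp1, which coats the vacuole of Toxoplasma, from 572 ± 9.67 to 7.10 ± 4.86. GBP and GTPase genes are close copies of each other, so reads may have been split or lost among them.

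The promoters of these genes hold the letters of the element through which interferon acts. RefSeq windows of 250 bases before and 50 after the transcription start (GRCm38.p6) were matched to 9 of the 15 genes, and all 9 hold GAAANNGAAA, the core of the interferon-stimulated response element (ISRE), on one strand or the other. Of all 27025 RefSeq promoters given, 3.49% hold it. Stretches before the start of a pair of GBPs and a pair of GTPases are written 5′ to 3′ on the gene's strand. The ISRE match is in capitals, to show its letters and its place. The Gbp2 stretch lies at chr3:142620579-142620638 (plus strand), that of Gbp3 at chr3:142559974-142560039 (plus strand), that of Irgm1 at chr11:48871421-48871475 (minus strand) and that of Igtp at chr11:58199497-58199555 (plus strand).
Gbp2: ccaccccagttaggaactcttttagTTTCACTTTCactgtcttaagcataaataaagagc
Gbp3: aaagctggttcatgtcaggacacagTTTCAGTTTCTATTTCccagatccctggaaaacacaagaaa
Irgm1: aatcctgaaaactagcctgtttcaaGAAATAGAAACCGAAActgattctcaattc
Igtp: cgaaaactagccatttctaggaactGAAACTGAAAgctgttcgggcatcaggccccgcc
The match begins 59 bases before the start in Gbp2 and 34 before it in Igtp, while Gbp3 and Irgm1 each hold 2 overlapping matches. Gbp3 fell from 11966 ± 250.3 to 329 ± 30.7 and Igtp from 4974 ± 275 to 1058 ± 30.9, and both were chosen for their promoters after their values were seen.

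Among all 10312 tested genes with a promoter in the table, the ISRE letters stood in 13.3% of the 495 promoters of genes at least 4-fold lower, in 2.04% of the 1130 of genes at least 4-fold higher and in 3.25% over all. Genes with the letters had a median log2 change of -0.42 and those without 0.09. The other motifs searched on both strands were GGGNNNNNCC for NF-kB, TGANTCA for AP-1, TGACGTCA for the cyclic AMP response element, GGGCGG for the GC box, CCAAT for the CCAAT box, TATAAA for the TATA box, GAGGAAGT for PU.1, TTTGAA for the cell cycle homology region (CHR) and CACGTG for the E-box. AP-1 letters stood in 12.3% of the promoters of the genes at least 4-fold lower against 5.32% over all tested, TATA letters in 16.0% against 7.16%, and CHR letters in 22.6% against 12.2%. The loose NF-kB pattern stood in 56.6% of them against 66.6% over all, and the GC box in 39.6% against 62.4%. Among the genes at least 4-fold higher every one of these shares lay nearer to that of all tested genes, apart from the E-box at 7.43%, against 1034 of 10312 over all and 8.08% among the genes at least 4-fold lower. The sets also differ in level, with a median mean normalised count of 1532 for the genes at least 4-fold lower and 66.4 for those at least 4-fold higher. A match is a description of letters and not of binding.

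**Figure D3:**
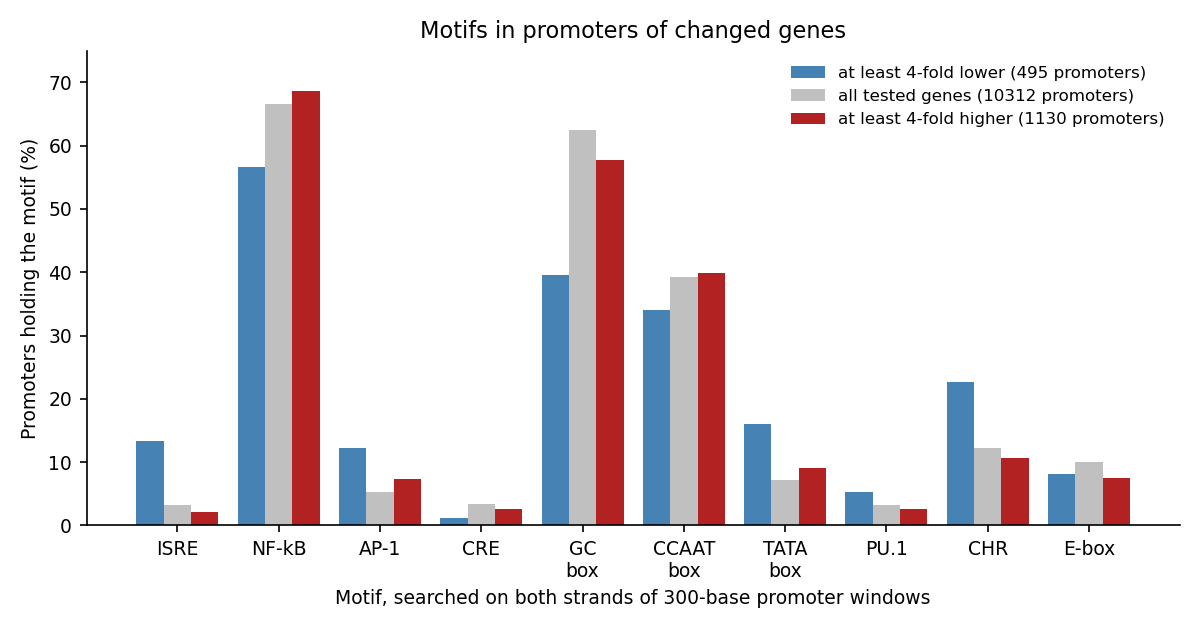
Percent of promoters (vertical axis, bars from 0) that hold each of 10 motifs (horizontal axis) among 495 genes at least 4-fold lower with LPS+NaBu, all 10312 tested genes with a promoter in the table, and 1130 genes at least 4-fold higher. The ISRE stands at 13.3%, 3.25% and 2.04% in these sets, and the GC box at 39.6%, 62.4% and 57.7%.

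Of 17 tested genes of interferon production, receptors and signalling 11 (64.7%) fell and 6 (35.3%) rose. Ifnb1, interferon-beta itself, read 158, 178 and 164 with LPS and 5.50, 4.46 and 5.44 with LPS+NaBu, 32.5-fold lower, so the transcript was nearly lost in all 3 libraries. Irf7, the factor that amplifies interferon production, fell from 43710.2 ± 2663 to 5350.5 ± 233, and Irf9, a DNA-binding factor of the interferon response, from 5210.3 ± 273 to 1347 ± 62.0. Irf5, which drives inflammatory cytokines, fell from 11195 ± 512 to 2567 ± 87.3. Among the 6 that rose were the receptor chains Ifnar1, from 4035 ± 131 to 7055 ± 166, and Ifngr1, from 883 ± 60.5 to 1390.1 ± 66.7, and the kinase Tyk2, from 7863 ± 499.8 to 12619 ± 648. Irf4, which counters IRF5 at the MyD88 adaptor, read 199.5, 171 and 167 with LPS and 2616, 2607 and 2765 with LPS+NaBu, 14.9-fold higher, the largest change upward in this list.

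The LPS receptor and its adaptors changed unequally. Of 23 tested members 14 fell and 6 rose, with a median of -0.37. Cd14, the co-receptor that hands LPS to Tlr4, read 157149.7, 171563 and 168367 with LPS and 9097, 9279 and 8884 with LPS+NaBu, 18.2-fold lower, the largest fall of the list. Myd88 fell from 7916 ± 416 to 2038 ± 127, Irak1 from 4520.0 ± 38.2 to 1411 ± 23.8 and Irak2, a kinase of the same complex, from 10391 ± 153 to 3213 ± 77.8. The kinases Map3k7, Chuk and Ikbkb, which carry the signal to NF-kB, went the other way, with Map3k7 rising from 2969.6 ± 273 to 4682 ± 280.3, Chuk from 2873 ± 258 to 4620.3 ± 409 and Ikbkb from 3678 ± 107 to 6091 ± 299.8. Of 20 tested ligands and receptors of the TNF family 15 fell and 4 rose. Ltb, a subunit of lymphotoxin, fell from 3809 ± 240.2 to 199.9 ± 12.95, and Tnf from 179534 ± 6954 to 9250.1 ± 129. Tnfsf14, the ligand LIGHT, went the other way, from 7.25 ± 6.34 to 296 ± 36.5. Of 10 tested colony-stimulating factors and receptors 7 fell, among them Csf3, the granulocyte factor, from 79854 ± 3462 to 1433 ± 89.8, and Csf1r, the receptor that keeps macrophages alive, from 25016 ± 549.7 to 6536 ± 567. Il34, a second ligand of Csf1r, rose from 39.01 ± 11.2 to 242 ± 14.4.

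Receptors for cytokines and chemoattractants fell more often than they rose, at 20 of 33 tested against 9, where 37.9% of all genes tested fell and 40.5% rose, and of the 28 that did not pass through 1 group alone 17 fell and 7 rose. Il21r, from 194 ± 45.4 to 13.6 ± 5.23, and Fpr2, a receptor for bacterial formyl peptides, from 48.1 ± 10.5 to 1.20 ± 1.13, were among the falls. Cxcr3, which binds interferon-induced chemokines, fell from 1998 ± 49.4 to 149.6 ± 12.4. Ccr7, the receptor that guides cells to lymph nodes, read 0, 0 and 0 with LPS and 57.8, 33.5 and 36.3 with LPS+NaBu, at least 11.8-fold higher. Il1r1, the signalling receptor for interleukin-1, rose from 2.95 ± 3.01 to 50.4 ± 5.68, and Cxcr4 from 42.9 ± 10.8 to 226 ± 22.8. These receptors were low with LPS in all 3 libraries and did not overlap with LPS+NaBu, where 80.0% of all genes tested did not overlap.

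Both routes of antigen presentation changed, and in opposite directions. Class I presentation displays peptides from inside the cell, and of its 23 tested genes 19 fell and 1 rose, with a median of -1.02. Erap1, which trims peptides, fell from 5149.6 ± 257 to 677 ± 28.1, and Psmb10, a subunit of the immunoproteasome, from 10090.0 ± 949.7 to 553 ± 64.3. The non-classical molecules H2-T23, from 12458 ± 623 to 1201 ± 79.4, and H2-T24, from 12385 ± 234 to 148 ± 11.5, fell too. The heavy chain H2-K1 stood at 14993 ± 856 with LPS and 13663 ± 807 with LPS+NaBu. The heavy chain H2-D1 stood at 36810.5 ± 1810.1 and 34404 ± 2320.1, and neither of these 2 passed the test. At 1 sum and under quantile normalization 3 members of the list rose and 18 fell. Both heavy chains had a log2 change above 0 there, and H2-D1 was called higher in at least 1 of these scalings. H2-K1 was called lower without LPS+NaBu replicate 1. These last 2 genes were singled out after their values were seen. Calr, a chaperone of the endoplasmic reticulum, was the member that rose, from 54875 ± 2744 to 68720.4 ± 2305.

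Class II presentation displays peptides from engulfed material to helper T cells, and all 11 tested of 12 listed genes rose, with a median of 3.92, under each scaling tried. Of these, 4 were below 10 in every LPS library, and the other 7 rose too. H2-Aa, the alpha chain of I-A, read 24.1, 14.1 and 26.8 with LPS and 816, 805 and 736 with LPS+NaBu, 36.3-fold higher (log2 change 5.16 ± 0.22, adjusted p = 1.4e-08). Its partner H2-Ab1 read 63.2, 79.8 and 49.4 and 1058, 937 and 907, and H2-Eb1, the beta chain of I-E, 158, 185 and 121 and 1322, 1261 and 1174. All 3 chains were present at a low level with LPS and rose in each LPS+NaBu library. Cd74, the invariant chain that guards the groove, was already abundant and rose 2.09-fold, from 5977 ± 516 to 12505 ± 933. H2-DMa rose from 324 ± 11.2 to 2468 ± 86.7, H2-DMb1 from 3.65 ± 1.44 to 116 ± 24.2 and H2-DMb2 from 29.6 ± 4.72 to 220.2 ± 33.3; together they form H2-DM, which loads peptides. H2-Ob, a subunit of the inhibitor H2-O, rose 117-fold, from 4.002 ± 1.65 to 469 ± 41.3, and the other subunit H2-Oa from 16.2 ± 8.40 to 136 ± 31.1. Ciita, the coactivator that class II genes depend on, had no read in any LPS library and read 12.4, 22.3 and 20.9 with LPS+NaBu, at least 5.16-fold higher at a floor of 3 reads per library. H2-Ea-ps, which the annotation used here lists as protein-coding despite its symbol, went from 0.668 ± 1.16 to 89.9 ± 21.6. H2-DMb1 and H2-DMb2 are near-identical copies, and how their reads were divided is uncertain.

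A RefSeq promoter window was found for 7 of the 11 class II genes, and 6 of them hold CCAAT, written ATTGG on the other strand, while none holds the ISRE letters. CCAAT stood in 39.2% of tested promoters and in 38.0% of all promoters in the table, so single matches are common. The 6 stretches are shown because the box sits at a like distance from the start, 43 to 90 bases before it at its farthest match, with capitals on CCAAT or ATTGG. They lie on GRCm38.p6 at chr17:34287842-34287896 (minus strand), chr17:34305783-34305861 (plus strand), chr17:34153105-34153159 (plus strand), chr17:34145134-34145188 (plus strand), chr17:34092311-34092365 (plus strand) and chr17:34238823-34238877 (plus strand), in the order given.
H2-Aa: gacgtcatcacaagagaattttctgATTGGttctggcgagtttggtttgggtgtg
H2-Eb1: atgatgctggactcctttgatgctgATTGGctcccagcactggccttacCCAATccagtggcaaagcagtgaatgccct
H2-DMb1: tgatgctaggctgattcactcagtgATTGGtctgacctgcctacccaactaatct
H2-DMb2: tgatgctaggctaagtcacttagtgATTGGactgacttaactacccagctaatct
H2-Oa: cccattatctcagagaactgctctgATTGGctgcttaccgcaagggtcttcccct
H2-Ob: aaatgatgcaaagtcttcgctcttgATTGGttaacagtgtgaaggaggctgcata
The stretches of H2-DMb1 and H2-DMb2 also show how near these copies are to each other.

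**Figure D4:**
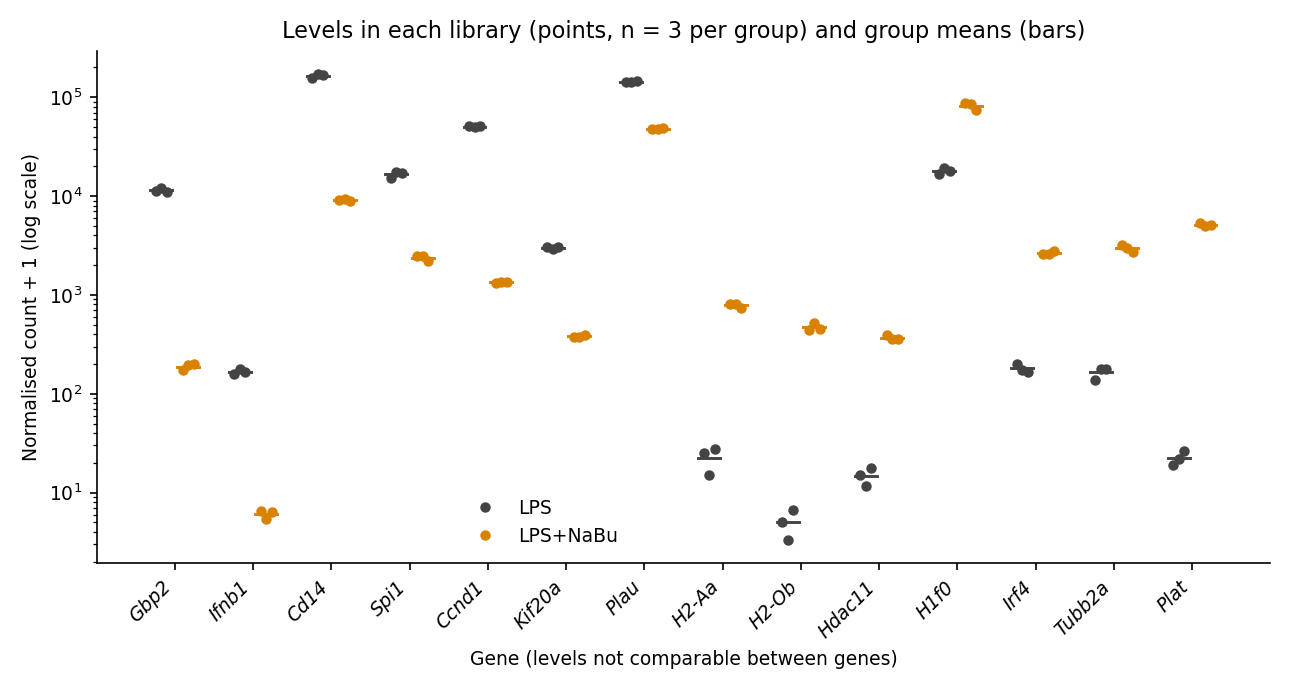
Normalised counts (vertical axis, log scale, count + 1) of 14 genes of the text in each of 6 libraries, with 1 point per library and a bar at the group mean, LPS and LPS+NaBu side by side. The groups do not overlap at any of the 14 genes, and Gbp2, Cd14 and Ccnd1 are lower while H2-Aa, Hdac11 and Plat are higher with LPS+NaBu. The 14 were picked from the text, and 80.0% of all genes tested did not overlap.

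Chromatin genes moved in both directions, and the linker histones, which bind the DNA between nucleosomes, rose. Of 19 tested linker and replacement histones 14 rose and 2 fell, with a median of 1.77. H1f0, the linker histone of resting and differentiated cells, read 16865, 19263 and 17724 with LPS and 86401, 84629 and 74884 with LPS+NaBu, 4.57-fold higher, and was singled out after its values were seen. Hist1h1c rose 11.1-fold, from 1750.0 ± 155 to 19478 ± 2442, and Hist1h1e 12.8-fold, from 30.7 ± 22.8 to 394 ± 32.7. Hist1h1d rose from 13.7 ± 3.70 to 234 ± 22.1 and Hist1h1a from 6.55 ± 4.50 to 126 ± 27.002. The 2 that fell were H2afz, the variant H2A.Z found at promoters, from 7824 ± 524 to 5055 ± 241, and H2afy, encoding macroH2A, from 7835 ± 223 to 4982 ± 49.4. The linker histones named were higher in every LPS+NaBu library than in any LPS library, where 80.0% of all genes tested did not overlap. Most replication histone transcripts lack a poly(A) tail, and how RNA was selected is not given by the sources used here.

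Of the 18 HDAC and sirtuin genes, all tested, 10 rose and 4 fell. Among the zinc-dependent enzymes Hdac11 changed most, reading 14.04, 10.6 and 16.9 with LPS and 389.9, 358 and 361 with LPS+NaBu, 26.7-fold higher. The class I enzymes differed, as Hdac1 rose from 5990.0 ± 143 to 8290.1 ± 245 and Hdac3 from 3464 ± 155 to 4969 ± 136, Hdac2 fell from 5011 ± 131 to 3918 ± 86.6, and Hdac8 at 363 ± 19.5 and 359 ± 42.1 did not pass the test. Among the larger class II enzymes Hdac4 rose from 562 ± 31.9 to 1162 ± 95.1, Hdac5 from 2954 ± 171 to 6527 ± 339.7 and Hdac6, which deacetylates tubulin, from 1154 ± 19.7 to 3114 ± 34.5. Hdac9 fell from 513 ± 77.0 to 208 ± 19.2. Hdac7, at 60.1 ± 17.5 and 86.0 ± 11.6, and Hdac10, at 840.3 ± 43.9 and 923 ± 28.1, did not pass the test. Sirtuins need NAD and are not among the zinc-dependent enzymes. Sirt2 rose from 3194 ± 175 to 7008 ± 327, Sirt3 from 361 ± 32.0 to 554 ± 63.5, Sirt4 from 339 ± 27.3 to 780.2 ± 61.0 and Sirt7 from 3467 ± 244 to 7459.6 ± 595. Sirt1 fell from 735 ± 76.2 to 365 ± 4.37 and Sirt6 from 1099 ± 74.7 to 885 ± 74.4, and Sirt5, at 296 ± 15.1 and 272 ± 16.1, did not pass the test. The falls of Hdac2 and Sirt6 did not pass the test at 1 sum, while Hdac7 and Hdac10 were called higher there. Under quantile normalization Sirt5 was called lower. Hdac7 was also called higher on variance-stabilised values, with all 9 libraries in the fit and without LPS replicate 1.

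HDACs work in corepressor complexes, and of 41 tested corepressor, acetyltransferase and bromodomain genes 25 fell and 10 rose, a balance that scaling to 1 sum narrowed to 19 and 16. Kat2b, the acetyltransferase PCAF, fell from 2367 ± 338 to 391 ± 67.4, and Mta3 and Sap30, subunits of the NuRD and Sin3 complexes, from 1643 ± 87.0 to 424 ± 53.6 and from 9099 ± 566 to 2349 ± 25.2. Of 39 tested genes of Polycomb complexes, DNA methylation and repressive histone methylation 23 fell and 10 rose, or 18 and 16 at 1 sum. Dnmt3a, a DNA methyltransferase, fell from 15549.8 ± 670.4 to 4250.3 ± 195, and Cbx3, a heterochromatin protein, from 2627 ± 302 to 755 ± 117. The Polycomb readers Cbx7, Cbx8 and Cbx2 rose 5.30-fold, 3.43-fold and 3.87-fold, and Ezh1, the methyltransferase of resting cells, rose from 1262 ± 39.03 to 3227 ± 60.7.

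REST silences neuronal genes outside the nervous system with the help of HDACs. Of 17 tested members 5 rose and 9 fell, with a median of -0.19 that turned to 0.08 with 8 higher and 3 lower when libraries were scaled to 1 sum, and to 6 higher and 4 lower under quantile normalization. Rest itself stood at 2546 ± 437 with LPS and 2133 ± 163 with LPS+NaBu and did not pass the test, but was called lower in 5 of 18 alternatives, edgeR and DESeq2 among them. The corepressors Rcor1 and Sin3b rose, from 3225 ± 407 to 5052 ± 380.4 and from 4572 ± 288 to 6866 ± 411, as did the phosphatase Ctdsp2, from 1417 ± 46.3 to 2860.4 ± 83.5. Rcor2 rose from 592 ± 33.0 to 688 ± 42.1, a call that was lost in 6 of 18 alternatives. Ctdsp1 fell from 3245 ± 83.3 to 1711 ± 68.3 and Smarcb1, a core subunit of the SWI/SNF remodeller, from 3445 ± 276 to 1744 ± 44.6. The other falls were those of Hdac2, Smarca4, Smarcc2, Rcor3, Ehmt2, Kdm1a and Phf21a, and none of the 9 was 2-fold. At 1 sum Smarcc2, Kdm1a and Phf21a had a log2 change above 0 and Hdac2, Rcor3 and Ehmt2 lost the call, and under quantile normalization Smarca4 was above 0 and Smarcc2, Kdm1a, Phf21a and Ehmt2 lost it. The call of Phf21a changed in 10 of 18 alternatives, TMM and DESeq2 included, and Rcor3 also lost its call without LPS+NaBu replicate 2 and Smarcc2 without LPS replicate 3. Sin3a, at 7036 ± 238 and 6666 ± 165, did not pass the test. At 1 sum and under quantile normalization it was above 0, and it was called higher in at least 1 of these.

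Some genes were all but silent with LPS and expressed with LPS+NaBu. At 75 genes, 74 of them protein-coding, every LPS library held at most 3 reads and every LPS+NaBu library 50 normalised counts or more, against 2 genes the other way round, Gm4951 and Olfr934, which were singled out after their values were seen. Celf5, a neuronal splicing factor, had no read with LPS and read 584, 544 and 474 with LPS+NaBu, at least 149-fold higher. Kcnh3, a potassium channel of the forebrain, went from 0.668 ± 1.16 to 781 ± 27.5, and Cgn, the tight junction protein cingulin, from 1.45 ± 1.27 to 604 ± 6.88. Mertk, a receptor by which macrophages take up apoptotic cells, read 1.003, 0 and 0 with LPS and 342, 373 and 406 with LPS+NaBu, and its bridging ligand Gas6 rose from 208 ± 7.78 to 2775 ± 304. Of 104 listed neuronal and synaptic genes 44 were tested, and 36 of them rose and 5 fell, with a median of 1.94. Of the tested, 9 were below 10 in every LPS library, and of the other 35 the test called 27 higher and 5 lower, or 2 lower in the whole list at 1 sum. Mapt, the microtubule-associated protein tau, rose from 7.35 ± 1.89 to 222 ± 14.4, Stmn4, a tubulin regulator, from 4.002 ± 1.65 to 167 ± 29.1, and Slc17a7, a vesicular glutamate transporter, from 14.5 ± 2.94 to 1418 ± 138. Bsn, a scaffold of the synapse, fell from 706 ± 42.8 to 251 ± 12.4. Of 8 defining neuronal markers Snap25, Syt1, Elavl4 and Stmn2 had no read in any of the 6 libraries and Rbfox3 and Map2 stayed under the minimum, while Slc17a7 and Tubb3 rose, and the summed level of the 8 was 19.8 to 26.996 with LPS and 1543 to 1839 with LPS+NaBu.

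Of 76 listed genes of epithelial junctions and keratins 33 were tested, of which 27 rose and 2 fell, with a median of 1.36. Of the 33, 6 passed through 1 group alone, and of the other 27 the test called 22 higher and 2 lower. F11r, the junctional adhesion molecule A, read 5.01, 4.69 and 0 with LPS and 518, 555 and 565 with LPS+NaBu, and Ppl, the desmosomal protein periplakin, rose from 4.63 ± 4.15 to 318 ± 27.2. Cldn9, a claudin, went from 0.668 ± 1.16 to 234 ± 23.2. The epithelial identity markers Epcam, Cdh1, Krt8, Krt18, Krt19, Krt7, Cldn4 and Esrp1 stayed under the minimum, with a summed level of 0 in each LPS library and 8.92 to 19.9 with LPS+NaBu. The summed level of 8 hepatocyte markers was likewise 0 with LPS and 1.38 to 14.5 with LPS+NaBu, that of 10 fibroblast markers 14.1 to 23.5 and 274 to 298 (4 tested, each below 10 in every LPS library), and that of 8 neutrophil markers 117 to 126 and 47.2 to 59.1. Endothelial, T cell and B cell marker sums were lower with LPS+NaBu, at 4127 to 4161, 225 to 241 and 70.7 to 75.8 against 12580.2 to 13987, 1302 to 1474 and 86.1 to 126, where with LPS single genes held most of the sum, Flt1 at 12387 ± 737, Lck at 1382 ± 86.0 and Pax5 at 86.3 ± 12.5. Other members rose, among the B cell markers Cd79a from 4.68 ± 3.06 to 20.998 ± 2.85 and Cd79b from 1.45 ± 1.27 to 21.9 ± 3.56 and among the endothelial ones Vwf from 942 ± 55.8 to 1138 ± 62.6. The part of other cell types in these levels was not tested. Of 33 tested ion channel genes 21 rose and 9 fell, but 9 of those that rose were below 10 in every LPS library, and of the other 24 the test called 12 higher and 9 lower. With a minimum of 50 in 3 libraries 12 of the list rose. Hcn3, a pacemaker channel, rose from 2.39 ± 0.412 to 116 ± 7.63, while Kcnn4, the calcium-activated channel of macrophages, fell 7.41-fold, from 11084 ± 980.3 to 1496 ± 98.9.

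Of 41 listed transcription factors that direct other lineages 22 were under the minimum, and of the 19 tested 13 rose and 4 fell. But 8 of the 13 were below 10 in every LPS library, of the other 11 the test called 5 higher and 4 lower, and with a minimum of 50 in 3 libraries the list held 4 of each. Tcf7, a Wnt-responsive factor of T cells, rose from 3.57 ± 3.16 to 222 ± 36.2 and Elf3, an epithelial factor, from 0.782 ± 1.36 to 40.4 ± 4.44. Neurog2, a neuronal determination factor, had no read with LPS and read 58.4, 50.2 and 75.3 with LPS+NaBu. Prdm1, encoding Blimp-1, likewise went from no read to 52.3, 51.3 and 53.5. Pax5, the B cell factor expressed at a low level in this line, fell from 86.3 ± 12.5 to 5.92 ± 6.15. Factors of the macrophage lineage itself fell more often, 14 of 23 tested against 7. Spi1, encoding PU.1, the master factor of macrophages, read 15182, 17625 and 17149 with LPS and 2503, 2460.4 and 2181 with LPS+NaBu, 6.99-fold lower. Cebpd fell from 3389 ± 379.5 to 124 ± 30.2, Cebpb from 16061 ± 968 to 4476 ± 119, Tfec from 684 ± 14.3 to 52.1 ± 8.15 and Fli1 from 1817 ± 72.6 to 248 ± 61.4. Cebpa, which drives early myeloid differentiation, rose from 34.7 ± 9.49 to 392 ± 34.8, and Batf3, a factor of cross-presenting dendritic cells, from 3.29 ± 3.54 to 71.8 ± 11.3. Tfeb, the regulator of lysosome genes, rose from 436 ± 64.5 to 1069 ± 51.7.

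Of 20 tested early response factors 11 rose and 6 fell, or 3 fell at 1 sum. Fosl1 fell from 3683 ± 254 to 455 ± 55.0, Jun from 6783 ± 429.6 to 2902 ± 64.9 and Myc, a driver of growth, from 3904 ± 241 to 402 ± 27.1. Egr1 rose from 17.0 ± 5.31 to 46.9 ± 3.43 and the orphan nuclear receptors Nr4a1 from 304 ± 37.8 to 1061 ± 66.9 and Nr4a3 from 4.002 ± 1.65 to 202 ± 21.8. Of 23 tested C-type lectins and scavenger receptors, which bind microbes and debris, 18 fell and 3 rose, with a median of -2.05, and of the 19 that did not pass through 1 group alone 15 fell and 2 rose. Msr1, scavenger receptor A, fell from 36871 ± 1415 to 965 ± 47.9, and Clec12a, an inhibitory lectin that senses dead cells, from 3154 ± 173 to 48.8 ± 3.59. Olr1, a receptor for oxidised LDL, went the other way, from 3.33 ± 2.01 to 40.1 ± 3.01. Of 22 tested Fc receptor and complement genes 15 fell and 5 rose. Fcgr1, the high-affinity IgG receptor, fell from 4996 ± 195 to 286 ± 4.85, and Cfb, complement factor B, from 112 ± 23.6 to 3.18 ± 3.10. C3, the central complement protein, rose from 3336 ± 341 to 27464 ± 1539.6, and Serping1, the inhibitor of the first complement component, from 1.45 ± 1.27 to 16.5 ± 2.67.

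All 55 mitosis and spindle genes fell, with a median of -1.70, and 54 of them fell when libraries were scaled to 1 sum. Kif20a, a kinesin of the midzone, read 3028, 2926 and 3043 with LPS and 373, 376 and 394 with LPS+NaBu, 7.88-fold lower, and Cdc20, the activator of the anaphase-promoting complex, read 3054, 3316 and 3255 and 466, 425 and 429.9, 7.29-fold lower. Kif15 fell from 1923 ± 205 to 241 ± 57.6, Nuf2, a kinetochore subunit, from 2189.5 ± 95.4 to 317 ± 34.1, and Mki67, the proliferation marker Ki-67, from 17844 ± 1322 to 4350.0 ± 226. Of 48 DNA replication genes 40 fell and 4 rose, or 36 and 8 at 1 sum, with a median of -1.24. Mcm10 fell 14.3-fold, from 5036 ± 231 to 353 ± 18.1, Rrm2, a subunit of ribonucleotide reductase, 8.42-fold, from 5552 ± 393 to 659 ± 87.1, and the helicase subunits Mcm3 and Mcm4 6.05-fold and 6.06-fold. Gins4 and Rfc2 rose 1.74-fold and 1.47-fold. Some of these genes are expressed chiefly in one phase of the cycle, and fewer dividing cells and less RNA per cell cannot be told apart in bulk samples.

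Regulators of the cycle fell in 23 of 36 tested cases and rose in 9. Ccnd1, cyclin D1, which starts the cycle in response to growth signals, read 50782, 49432 and 51088 with LPS and 1321, 1359.6 and 1361 with LPS+NaBu, 37.4-fold lower (log2 change -5.23 ± 0.04, adjusted p = 2.47e-12). Ccna2 fell from 2219.6 ± 111 to 295 ± 1.30, Ccnb1 from 5086 ± 188 to 1009 ± 23.6 and Cdc25a, the phosphatase that frees Cdk2, from 3543 ± 40.6 to 643 ± 23.7. Rb1, the retinoblastoma brake on E2F, rose from 307 ± 42.7 to 1539 ± 126, and its relative Rbl2 from 627 ± 82.8 to 1492 ± 65.8. Gadd45a and Gadd45g, stress-induced inhibitors of the cycle, rose 6.69-fold and 3.63-fold. Cdkn1a, the inhibitor p21 that is known to respond to HDAC inhibitors, moved less, from 19906 ± 492 to 22856 ± 604, 1.15-fold higher (log2 change 0.20 ± 0.05, adjusted p = 0.00239), and was singled out after its values were seen.

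Promoters of the mitosis genes often hold the letters of the cell cycle homology region, at which the DREAM complex represses genes in resting cells. A window was found for 49 of the 55 genes, and 38 of them hold TTTGAA on either strand, against 12.2% of all tested genes with a promoter and 18.2% of all promoters in the table; 36 of the 49 hold CCAAT. Of 40 replication genes with a window 7 hold TTTGAA and 25 CCAAT. The stretches of Cdc20 at chr4:118437344-118437386 (minus strand), Ube2c at chr2:164769875-164769928 (plus strand) and Kif2c at chr4:117178845-117178900 (minus strand), on GRCm38.p6, are shown for the position of the element, with TTTGAA or its complement TTCAAA in capitals.
Cdc20: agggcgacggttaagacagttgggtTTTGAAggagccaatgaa
Ube2c: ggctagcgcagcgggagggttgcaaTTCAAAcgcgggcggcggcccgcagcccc
Kif2c: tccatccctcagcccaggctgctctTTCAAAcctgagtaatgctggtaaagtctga
It lies 18, 29 and 103 bases before the start in these genes. Kif2c fell from 2326 ± 194 to 459 ± 18.5 and Ube2c, the ubiquitin-conjugating enzyme of the anaphase-promoting complex, from 4195 ± 418 to 1459 ± 90.9, and these last 2 genes were chosen for their promoters after their values were seen.

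**Figure D5:**
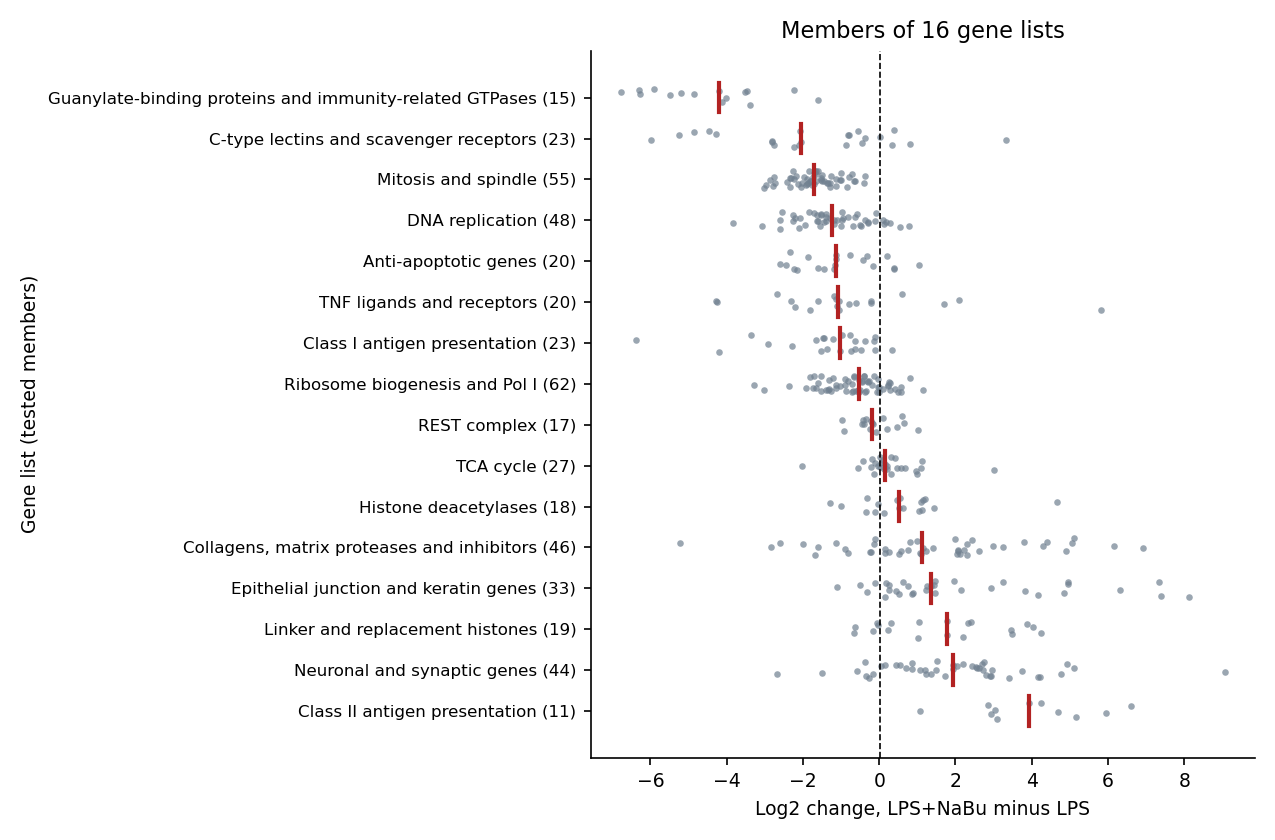
Log2 change (horizontal axis, LPS+NaBu minus LPS) of each tested member of 16 gene lists (vertical axis), 1 point per gene, with a bar at the list's median and a dashed line at the median of all genes tested, 0.03. Guanylate-binding proteins lie wholly to the left and class II genes wholly to the right.

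Of 20 anti-apoptotic genes 15 fell and 4 rose, with a median of -1.14. Bcl2l1, encoding Bcl-xL, fell from 31709.6 ± 1807 to 6765 ± 285, and Cflar, the inhibitor of caspase-8, from 20693 ± 2310.1 to 3804 ± 224. Bcl2a1d and Bcl2a1a fell 6.08-fold and 4.96-fold, although these near-identical copies may share reads. Of 25 tested pro-apoptotic genes 10 (40%) rose and 11 (44%) fell, near the shares of all genes, with a median of -0.15 that became 0.11 with 11 higher and 10 lower when libraries were scaled to 1 sum. Bmf, a BH3-only protein freed from the cytoskeleton, read 69.2, 51.6 and 56.5 with LPS and 925, 826 and 847 with LPS+NaBu, 14.7-fold higher. Bcl2l11, encoding Bim, rose from 1898 ± 71.6 to 6873 ± 296, Casp6 from 317 ± 46.6 to 2334 ± 57.6 and Dffa, the chaperone of the apoptotic nuclease, from 687 ± 44.5 to 2749.6 ± 117. Bak1, which opens the mitochondrial outer membrane, fell from 12604 ± 755 to 2878 ± 233, Bax from 9269 ± 610.4 to 4483 ± 191 and Casp8, the initiator of death receptor signals, from 6486 ± 138 to 1281 ± 73.2. Bmf and Bcl2l11 were thus higher, and Bak1 and Bax lower, in every LPS+NaBu library than in any LPS library. Such a lack of overlap was shared by 80.0% of all genes tested. Of 23 tested inflammasome and pyroptosis genes 16 fell and 4 rose, or 7 rose at 1 sum. Zbp1, a sensor of Z-form nucleic acids, fell from 16847 ± 896 to 879 ± 74.0, and the pore formers Gsdmd from 13102 ± 587 to 1749 ± 102 and Mlkl from 8708 ± 59.0 to 1165 ± 48.6. Ripk3, the kinase that activates Mlkl, rose from 1439 ± 47.5 to 3527 ± 102, and Nlrc4, the sensor partner for flagellin, from 99.8 ± 17.9 to 244 ± 22.9.

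The cytoskeleton changed by isoform. Of 17 tubulin genes, all different loci but of closely alike sequence, 9 rose and 8 fell. Tuba1b, the main alpha-tubulin of dividing cells, fell from 24981 ± 915 to 8155 ± 239, and Tubb5 from 55923 ± 2245 to 24429 ± 1129. Tubb2a, read 137, 177 and 177 with LPS and 3226, 2998 and 2713 with LPS+NaBu, rose 18.2-fold, Tubb2b rose from 13.1 ± 3.22 to 285 ± 10.3, Tubb3, the neuronal isoform, from 7.96 ± 1.75 to 269 ± 20.6, and Tuba1a from 708 ± 36.6 to 5495 ± 125. Tubb2a, Tubb2b, Tubb3 and Tuba1a were thus higher, and Tuba1b and Tubb5 lower, in every LPS+NaBu library than in any LPS library. Such a lack of overlap was shared by 80.0% of all genes tested. Of 86 tested genes of actin and its regulators 36 rose and 45 fell, a balance that turned to 40 and 37 when libraries were scaled to 1 sum and to 40 and 36 under quantile normalization. Actb, beta-actin, fell from 220238 ± 7614 to 86555 ± 3849, Tln1, the integrin linker talin, from 141667 ± 1557 to 33115 ± 1337, and Flnc from 13961 ± 790.3 to 1506 ± 62.4. Coro2a rose from 38.7 ± 0.488 to 873 ± 8.95, Wasf1, a neuronal activator of actin branching, from 57.3 ± 5.10 to 442 ± 15.5, and Rhov from 120.3 ± 13.9 to 976 ± 92.5. Of 32 tested integrins and tetraspanins 12 rose and 13 fell, or 18 and 12 at 1 sum and 16 and 14 under quantile normalization. Itga6, a laminin receptor, rose from 45.7 ± 18.6 to 469.6 ± 39.7, and Itga4, which binds VCAM-1, fell from 8460.2 ± 1818 to 1854 ± 272.

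Of 46 tested genes of the extracellular matrix 31 rose and 12 fell, with a median of 1.11, and of the 35 that did not pass through 1 group alone 21 rose and 11 fell. Lama5, a laminin chain of basement membranes, rose from 20.4 ± 6.76 to 1481 ± 52.4, Col1a1, a chain of type I collagen, from 3.45 ± 0.596 to 147 ± 5.24, and Col16a1 from no read to 131, 108 and 122. The matrix proteases Mmp3 and Mmp14 fell, from 58.3 ± 14.2 to 0.917 ± 1.59 and from 66.1 ± 15.04 to 8.44 ± 2.72, and Spp1, osteopontin, one of the most abundant transcripts, rose from 374129.9 ± 9213 to 533189 ± 6942. The plasminogen activators changed in opposite directions. Plat, the tissue-type activator, read 18.05, 21.1 and 25.4 with LPS and 5317, 4989 and 5147 with LPS+NaBu, 239-fold higher (log2 change 7.85 ± 0.13, adjusted p = 4.62e-11). Plau, the urokinase-type activator, fell from 143772 ± 3199 to 48111 ± 1082, and its receptor Plaur from 24445 ± 925 to 2730.4 ± 204. Thbd, the anticoagulant thrombomodulin, rose from 35.5 ± 5.96 to 165 ± 24.6, and F10, coagulation factor X, fell from 3134 ± 268 to 156 ± 9.69.

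Metabolic genes moved without a single direction. Butyrate enters cells through the monocarboxylate transporters, of which Slc16a1 fell from 5952 ± 279.6 to 2465 ± 121, Slc16a3 from 21981 ± 1352 to 11583 ± 985 and Slc16a6 from 4457 ± 126 to 803 ± 39.5. Of 17 tested genes of short-chain fatty acid sensing, transport and use 8 rose and 4 fell, or 7 fell under quantile normalization, and the receptor Hcar2 fell from 3173 ± 95.0 to 1481 ± 43.9. Ffar2 and Ffar3, the other receptors, stayed under the minimum for testing. Acss2, which makes acetyl-CoA from acetate, rose from 1317 ± 68.4 to 5736 ± 96.8, Acads, the first dehydrogenase of butyrate oxidation, from 1740.2 ± 189 to 5023 ± 190.3, Hadh from 1625 ± 35.0 to 5365 ± 217 and Acly, which makes acetyl-CoA from citrate, from 17099 ± 586 to 37083 ± 436. Of 49 tested genes of lipid handling and fatty acid oxidation 24 rose and 16 fell, and of the 45 not below 10 in every LPS library 20 rose and 16 fell. Cpt1a, the gate of fatty acid entry into mitochondria, rose from 1473 ± 26.1 to 5715 ± 44.2 and was singled out after its values were seen. Ppara rose from 2.51 ± 2.36 to 46.8 ± 6.89, Pparg from 0.782 ± 1.36 to 15.4 ± 4.41, Dgat2, which makes triglyceride, from 7.80 ± 3.41 to 263 ± 15.2 and Plin5, a lipid droplet protein, from 1.45 ± 1.27 to 160.0 ± 26.3. Fasn, fatty acid synthase, fell from 24318 ± 726 to 4558 ± 81.1, Lpl from 150708 ± 6715 to 37473 ± 4289 and Nr1h3, the oxysterol receptor LXR-alpha, from 393 ± 13.996 to 105 ± 12.5.

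In glycolysis 14 of 32 tested genes rose and 14 fell, or 16 and 10 at 1 sum and 16 and 11 under quantile normalization. Hk3 and Hk2, hexokinases, fell 6.04-fold and 2.36-fold, and Slc2a3, a glucose transporter, fell from 2017 ± 61.0 to 809 ± 17.7. Pdk2, which blocks pyruvate dehydrogenase, rose 12.8-fold, from 57.7 ± 19.2 to 739.9 ± 53.1, and Pfkm from 1579.5 ± 195 to 7755 ± 373. Of 27 genes of the TCA cycle 14 rose and 5 fell, or 3 fell at 1 sum. Pcx, pyruvate carboxylase, which refills the cycle, read 567, 520.0 and 515 with LPS and 4646, 4497 and 3907 with LPS+NaBu, 8.14-fold higher, and Suclg2, a subunit of succinyl-CoA synthetase, fell from 3714 ± 152 to 918 ± 73.0. Of 13 transcripts of the mitochondrial genome 8 rose and 0 fell, and 0 fell under each scaling tried. Their share of counts was 1.41% ± 0.0489 with LPS and 2.12% ± 0.0602 with LPS+NaBu. The 72 nuclear-encoded respiratory chain genes showed no common direction, with 21 higher and 25 lower, or 41 and 10 at 1 sum and 34 and 17 under quantile normalization. In cholesterol synthesis and uptake 11 of 28 tested rose and 13 fell, or 14 and 9 at 1 sum and 13 each under quantile normalization, with Hmgcs1 falling from 9672 ± 539.8 to 3262 ± 126 and Dhcr7 rising from 1331 ± 29.1 to 4520.5 ± 199.8. Irg1, which makes itaconate, fell from 205193 ± 5277 to 46313 ± 2966, and Arg2, mitochondrial arginase, rose from 346 ± 31.0 to 1088 ± 42.7.

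Among 30 tested genes of metal handling 16 rose and 10 fell. Mt1, metallothionein, rose from 11577 ± 979 to 52788 ± 1998. Tfrc, the transferrin receptor, fell from 13640.4 ± 1327 to 4144 ± 553, and Slc11a1, the phagosomal metal pump, from 13166 ± 406 to 3026 ± 119. Slc40a1, the iron exporter ferroportin, rose from 653 ± 30.1 to 1960.3 ± 72.1. Of 44 tested NRF2, glutathione and thioredoxin genes 18 rose and 20 fell, or 24 and 14 at 1 sum and 25 and 16 under quantile normalization. Slc7a11, the cystine importer, fell from 3771 ± 523 to 500.5 ± 58.4, and the glutathione transferases Gstp1 and Gstt1 rose from 173 ± 23.3 to 1116 ± 215 and from 115 ± 31.1 to 1643 ± 85.4. Of 42 genes of the unfolded protein response and ATF4 11 rose and 23 fell, or 20 and 13 at 1 sum and 17 and 15 under quantile normalization, with Ddit4, an inhibitor of mTOR, rising from 242 ± 23.5 to 1986 ± 65.8, Ddit3, encoding CHOP, from 1522 ± 203 to 4826 ± 231 and Xbp1 falling from 6064 ± 194 to 2094 ± 71.6. Of 35 tested heat shock proteins and chaperones 8 rose and 19 fell, or 13 and 14 at 1 sum and 14 and 12 under quantile normalization. Hspd1, the mitochondrial chaperonin, fell from 53941 ± 1406 to 14386 ± 1082, and Cryab, a small heat shock protein, rose from 4.51 ± 2.17 to 86.6 ± 18.4. Of 79 ribosomal protein genes 68 fell, at a median of -0.38, and 26 fell and 5 rose at 1 sum, while under quantile normalization 38 were higher and 13 lower. Of 62 factors that build ribosomes 44 fell and 12 rose, and falls were those of Dkc1, dyskerin, from 5054 ± 206 to 625 ± 33.0, Nop56 from 20663 ± 854 to 5418 ± 166 and Ncl, nucleolin, from 103576 ± 761 to 35886 ± 2775.

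Of 34 tested Wnt and Notch genes 20 rose and 10 fell, or 6 fell at 1 sum, and of the 26 not below 10 in every LPS library 12 rose and 10 fell, or 13 and 10 of the list at a minimum of 50, with Fzd4, a Wnt receptor, rising from 0 to 32.3 ± 10.9, Dtx1, a Notch regulator, from 19.05 ± 8.27 to 1705 ± 156 and Rbpj, the DNA-binding factor of Notch, falling from 21598 ± 1269 to 5832 ± 303. In the TGF-beta family 15 (42.9%) of 35 tested rose and 12 (34.3%) fell, near the shares of all genes, with a median of 0.25 that became -0.04 under quantile normalization, and of the 32 not below 10 in every LPS library 12 rose and 12 fell. Of the family Fstl3, an activin trap, rose from 0.782 ± 1.36 to 121 ± 3.80 and Tgfb1 fell from 26086 ± 1893 to 14858 ± 755; its latent binding protein Ltbp4 rose from 25.3 ± 3.70 to 621 ± 43.5. Of 26 tested growth factors 9 rose and 14 fell, or 10 and 8 at 1 sum. Vegfc, the lymphatic growth factor, fell from 5846 ± 142 to 368 ± 45.6, Igf1 from 5983 ± 105 to 925 ± 66.7, and Pgf, placental growth factor, rose from 24.8 ± 15.2 to 360.0 ± 20.9. In the synthesis of prostaglandins and leukotrienes 12 of 25 tested rose and 10 fell, with a median of 0.09 that became -0.02 under quantile normalization, as Ptges, the inducible prostaglandin E synthase, fell from 5795 ± 299 to 912 ± 25.6, and Ltb4r1, the receptor for leukotriene B4, rose from 4.67 ± 2.02 to 264 ± 17.7. The enzymes that clear extracellular ATP, Entpd1, encoding CD39, and Entpd3, rose, the former from 6.68 ± 2.36 to 124 ± 17.8 and the latter from no read to 57.1, 69.2 and 77.1, among 13 of 20 tested purine genes that rose and 6 that fell, with 4 of the 13 below 10 in every LPS library. Osteoclast genes, for which RAW264.7 cells are a common model, split into 11 that rose and 14 that fell of 25 tested, or 12 and 10 at 1 sum and 12 each under quantile normalization. Ocstamp, a fusion protein, rose from 29.5 ± 4.997 to 448 ± 46.0, Acp5, encoding tartrate-resistant acid phosphatase, from 1101 ± 111 to 3815 ± 341, and Ctsk, cathepsin K, fell from 78755 ± 2768 to 17722 ± 359. Of 20 tested clock genes 11 rose and 7 fell, or 4 fell at 1 sum, Rora from 12.3 ± 3.99 to 122 ± 30.1 upward and its antagonist Nr1d1 from 3089 ± 185 to 815 ± 36.4 downward. Of 67 lysosomal genes 30 (44.8%) rose and 25 (37.3%) fell, near the shares of all genes, Ctsh, cathepsin H, rising from 1.34 ± 2.32 to 21.7 ± 6.52 and Gusb falling from 33816 ± 1175 to 9326 ± 334.

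Among genes with a mean of at least 1000 over the 6 libraries, the 15 largest rises ran from 15.9-fold to 239-fold and the 15 largest falls from 38.2-fold to 303-fold. Beside genes named above, the rises held Cadm4, an adhesion molecule of glia, which read 61.2, 89.2 and 57.9 with LPS and 6975, 6794 and 6426 with LPS+NaBu, 97.0-fold higher, and Dact3, a Wnt antagonist, which read 25.1, 23.5 and 33.9 and 2918, 2775 and 2633, 101-fold higher. Gng7, a G-protein subunit, rose from 166 ± 6.15 to 5253 ± 171, Akap12, a kinase scaffold, from 56.3 ± 6.04 to 1953 ± 53.7, Stard10, a phospholipid carrier, from 88.8 ± 20.8 to 2319 ± 219, and Ttll1, which adds glutamate chains to tubulin, from 532 ± 9.80 to 9748 ± 166. Wipi1, a protein of autophagosome formation, rose from 129 ± 9.99 to 2372 ± 67.8, and Azin2, an inhibitor of antizyme, from 129 ± 19.07 to 3674 ± 333. These genes were picked for the size of their change, so that their groups did not overlap adds nothing to it. At 80.0% of all genes tested the groups did not overlap either. The LPS libraries held low but countable levels of each of these rises. The falls held Siglec1, the sialic acid receptor CD169, which read 12291, 11902 and 11387 with LPS and 191, 229.8 and 179.6 with LPS+NaBu, 59.2-fold lower, and Tlr7, the sensor of single-stranded RNA, which read 6231, 5513 and 5673 and 157, 120.5 and 139.7, 41.8-fold lower. Gpr84, a receptor for medium-chain fatty acids, fell from 2689 ± 162 to 63.8 ± 10.04, Il27, a subunit of interleukin-27, from 5842 ± 463 to 113 ± 23.3, and Ifi47, an interferon-induced GTPase, from 3974 ± 124 to 90.8 ± 11.03. Reads of all 5 genes were still counted in each LPS+NaBu library.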

How the data were processed

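RNA of RAW264.7 cells was sequenced with a directional kit. The study's methods name Trimmomatic, HISAT2, featureCounts with unique reads, DESeq2 and limma, while STAR 2.7.7a, DESeq2 and mm39 stand in the processing notes of the submitters, so the aligner is uncertain, and no source used here gives the strand setting of counting. The deposited signal, though called FPKM, is gene counts divided by a size factor per library: dividing each value by the worth of 1 read gave whole numbers for 100% of values, within 0.001, a check that says little in LPS replicate 1, whose step lies within 1% of 1. A pseudocount of 1 was added, genes with at least 10 in at least 3 of 6 libraries were kept, and log2 values were tested two-sided with limma 3.58.1 (R 4.3.3, trend, Benjamini-Hochberg). The test was tried on simulated data with 200 changed genes. That is far fewer than were called here, so the trial cannot show how the test behaves with this many changes. edgeR 4.0.16 and DESeq2 1.42.0 on recovered reads were alternatives, beside other scalings, filters and pseudocounts and leaving out libraries.

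Gene lists (64, with 2136 genes) and the rule for naming genes were chosen with earlier results of these data known. The rule takes the 15 largest rises and falls at a mean of at least 1000, up to 4 called genes per list and direction, the most abundant member of each list, all HDAC, REST complex and class II genes, and genes the study discusses; other genes are marked in the text, and a few genes are not reported here. Gene positions are GENCODE M39 on GRCm39. RefSeq promoters on GRCm38.p6 matched 10312 of 14503 tested genes (71.1%), taking the most 5′ window of a symbol.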

Additional observations from a re-analysis of the deposited data

How the results depend on the processing

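The counts of higher and lower genes stayed within 1.5 times of 5873 and 5495 in all 18 alternatives, from 4954 to 7338 and from 4008 to 5824. Without filtering 23519 genes were tested (6734 higher, 5565 lower), and with a minimum of 50 in 3 libraries 11981 (4954 and 5101). Recovered reads gave 5894 and 5510 with edgeR and 5865 and 5358 with DESeq2. Of the 11368 calls, 11359 were tested with libraries scaled to the same sum, where 9881 were kept and 51 went the other way. Under quantile normalization 10263 of the 11368 were kept and 94 went the other way. The rest did not pass the test in those scalings. Variance-stabilised values, which shrink low genes by construction, left 2063 genes at least 2-fold higher in place of 3148. Leaving out 1 library at a time gave 5568 to 5838 higher and 5217 to 5385 lower genes.

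No pairing of the libraries by replicate number was seen. Deviations from the group means correlated at -0.217, 0.151 and 0.0519 between libraries of the same number, over 10928 genes. Not every library correlated best with its own number. With 3 libraries per group these correlations cannot settle whether libraries were paired. With a replicate block 5879 genes were higher and 5477 lower, Rcor2 lost its call and Rest gained one.

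Of 286 genes in the text 17 changed call or direction in an alternative, 11 of them direction. Scaled to the same sum, log2 changes turned to 0.18 for H2-D1, 0.14 for H2-K1, 0.25 for Hdac8, 0.082 for Kdm1a, 0.075 for Phf21a, 0.032 for Rest, 0.20 for Sin3a, 0.16 for Sirt5 and 0.12 for Smarcc2. Under quantile normalization they turned to 0.44 for H2-D1, 0.22 for H2-K1, -0.079 for Hdac7, 0.12 for Sin3a and 0.023 for Smarca4. Leaving out 1 library at a time moved Hdac8 between -0.11 and 0.048, above 0 without LPS replicate 1 (0.021) or LPS+NaBu replicate 1. Apart from the effect of the scaling itself, the cause was not tested. Genes near 10 normalised counts and changes near the median standard error of 0.087 are the least certain, and 3 libraries per group limit every p-value.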

Other observations

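Neighbouring genes changed together at several places. Counting runs of at least 6 tested genes that follow each other on a chromosome and were all at least 2-fold higher or all at least 2-fold lower, 18 runs were found, 11 lower and 7 higher. The runs were looked for after values were seen and no test was made of them, and many hold near-identical copies that can share reads. The longest, on GRCm39 at chr1:173296051-173859456, held 15 genes, among them Ifi202b, Ifi203, Ifi204, Ifi205, Mnda and Mndal of the interferon-induced p200 family, with log2 changes from -4.35 to -1.08. The second, at chr1:85016786-85706364, held 14 genes around the nuclear body proteins Sp100, Sp110 and Sp140. Other runs of lower genes held Trim30a to Trim30d and other Trim genes (9 genes, chr7:103531861-104157107), Slfn genes (8 genes, chr11:82842100-83081042, log2 changes from -4.78 to -3.03), and Tnf, Lta and Ltb with 4 neighbours (7 genes, chr17:35399511-35454793). Among runs of higher genes the longest, 9 genes at chr11:115054157-115286967, held Hid1 and Otop2, and 8 genes at chr8:71151599-71257698 held Jund, Rab3a and Ifi30. The class II genes H2-Ob, H2-Ab1, H2-Aa, H2-Eb1 and H2-Ea-ps formed a run of 6 with Notch4 at chr17:34457836-34807477.

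Kinds of gene differed in how often they rose. Of 12440 protein-coding genes 44.7% rose and 38.5% fell, of 1111 pseudogenes 10.8% rose and 38.8% fell, and of 500 long non-coding RNAs 24.4% rose and 30.0% fell. Pseudogenes and long non-coding RNAs were also much lower in level, with median mean normalised counts of 58.2 and 20.1 against 1464. On the X chromosome 23.5% of 439 tested genes rose and 46.9% fell, while on chromosome 15, the highest of the autosomes in this respect, 49.1% of 548 rose and 33.4% fell. The part of level or gene density in these shares was not tested.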
